A study of Mus musculus with 2 samples.

Results

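The genes described here are Xlr3a, Xlr3b, Xlr3c, Xlr4a, Xlr4b and Xlr4c, 6 of the 55246 loci in a table of gene-level read counts, picked by their gene names. They were measured by RNA sequencing of regulatory T cells (Treg cells), a suppressive CD4 T cell class defined by Foxp3, a transcription factor, taken from the colon lamina propria of female mice. One group is WT and the other is Exon2KO, whose Foxp3 allele lacks exon 2 (written Foxp3∆2 by the submitters), with 1 library each. The mouse strain, age and sorting scheme are not given in the sources used here, nor is it known whether a library holds 1 mouse or a pool. With no second library of either genotype, the spread between samples is unknown, and genotype cannot be told apart from any other difference between the mice used. Whether both genotypes carry the same copies and sequence of this cluster cannot be read from gene counts, which count mapped reads only, and was not tested. The genes were proposed with the values of this comparison in view, so their differences are a description and carry no test.

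Xlr stands for X-linked lymphocyte-regulated. The family was found through transcripts of lymphoid cells, and its proteins share a conserved region with SYCP3, a structural protein of the axis that meiotic chromosomes form. Xlr3 and Xlr4 genes lie in repeated blocks on the X chromosome, and Xlr3b, Xlr4b and Xlr4c are known in mouse brain as imprinted genes read mainly from the maternal X chromosome. In neurons, Xlr3b is known to rise when the chromatin remodeller Atrx is missing.

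In these libraries the cluster split by subfamily. Xlr3 reads were almost confined to the WT library, at 997 against 9, and 942 of the 997 belonged to Xlr3b. Xlr4 reads were present in both libraries, at 4582 in WT and 3528 in Exon2KO. Of the 5 members with at least 10 reads over both libraries, 2 (Xlr3a and Xlr3b) were lower in the Exon2KO library by 2-fold or more, 0 were higher, and the 3 Xlr4 genes lay within 2-fold. By the same rule 8.14% of the 17363 loci tested were lower and 9.38% were higher (7.27% and 7.48% of protein-coding genes). Nothing is read from the members' count, because this contrast helped to choose them. Xlr3c was too sparse for this count, with 4 reads in all.

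The 6 copies are close relatives, so the sequences that separate them matter for every value below. The coding sequences of the Xlr3 trio were the most alike between Xlr3b and Xlr3c, with 4 differing bases in 678 aligned (99.4% identity). Xlr3a differed from each of them at 12 of 663 aligned bases (98.2%) and lacked a further 15. In the Xlr4 trio the number of differing bases over 645 was 3 between Xlr4b and Xlr4c, 6 between Xlr4a and Xlr4b, and 7 between Xlr4a and Xlr4c. Between the subfamilies the identity was far lower, at 57.3% to 58.7%. The 100-base coding windows with the most differing positions in each trio are shown to give an idea of what a read can see (GENCODE M21 transcripts, GRCm38). Capitals mark positions at which the copies of a trio are not all the same, and each window crosses 1 intron. The Xlr3 windows lie at chrX:73090874-73091788 on the minus strand for Xlr3a, chrX:73197456-73198370 on the plus strand for Xlr3b and chrX:73259108-73260022 on the minus strand for Xlr3c.
Xlr3a: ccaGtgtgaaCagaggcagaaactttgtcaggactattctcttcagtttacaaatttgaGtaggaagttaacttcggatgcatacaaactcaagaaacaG
Xlr3b: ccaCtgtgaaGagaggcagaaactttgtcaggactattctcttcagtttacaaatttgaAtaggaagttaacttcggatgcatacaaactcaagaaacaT
Xlr3c: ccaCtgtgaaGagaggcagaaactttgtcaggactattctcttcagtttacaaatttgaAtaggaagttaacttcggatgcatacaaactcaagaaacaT
In this window Xlr3b and Xlr3c read the same, and Xlr3a differs at 4 positions. The Xlr4 windows lie at chrX:73074847-73076748 on the minus strand for Xlr4a, chrX:73220057-73221950 on the plus strand for Xlr4b and chrX:73234581-73237389 on the minus strand for Xlr4c.
Xlr4a: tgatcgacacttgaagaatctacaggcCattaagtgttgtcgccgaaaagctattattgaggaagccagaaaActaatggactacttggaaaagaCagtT
Xlr4b: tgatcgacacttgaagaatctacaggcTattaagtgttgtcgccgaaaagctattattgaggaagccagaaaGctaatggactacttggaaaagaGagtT
Xlr4c: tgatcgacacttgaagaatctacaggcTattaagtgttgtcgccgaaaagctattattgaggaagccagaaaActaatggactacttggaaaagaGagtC

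The sequence before the transcription start was compared next, since the ratios of the Xlr3b and Xlr4 genes differed widely and since copies within the Xlr3 trio differed widely in WT reads. RefSeq (GRCm38.p6) gave a start for 6 of the 6 genes. The windows printed are the parts of the 250 bases before the start that all copies of a trio share, 5′ to 3′ on each gene's own strand, with capitals at positions that are not the same in all copies of the trio. For the Xlr3 genes they lie at chrX:73097096-73097264 on the minus strand for Xlr3a, chrX:73191949-73192134 on the plus strand for Xlr3b and chrX:73265455-73265640 on the minus strand for Xlr3c.
Xlr3a: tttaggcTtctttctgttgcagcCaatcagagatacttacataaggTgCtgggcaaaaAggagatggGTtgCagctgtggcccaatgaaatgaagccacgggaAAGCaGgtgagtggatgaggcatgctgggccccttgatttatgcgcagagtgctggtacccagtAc
Xlr3b: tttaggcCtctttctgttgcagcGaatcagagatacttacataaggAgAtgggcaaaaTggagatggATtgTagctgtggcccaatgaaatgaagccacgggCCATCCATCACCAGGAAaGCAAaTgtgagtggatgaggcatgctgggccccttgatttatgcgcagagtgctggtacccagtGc
Xlr3c: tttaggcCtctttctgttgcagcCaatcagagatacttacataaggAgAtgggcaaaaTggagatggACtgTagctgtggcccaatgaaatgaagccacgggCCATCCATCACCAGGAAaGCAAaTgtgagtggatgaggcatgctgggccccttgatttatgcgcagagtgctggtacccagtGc
Xlr3b and Xlr3c differed at 2 of 186 bases (98.9% identity), while Xlr3a differed from either at 13 of 169 aligned bases (92.3%) and lacked a further 17. Thus Xlr3b, with 942 WT reads, and Xlr3c, with 4, are the closest pair of the trio here as well as in coding sequence. The Xlr4 windows lie at chrX:73082538-73082757 on the minus strand for Xlr4a, chrX:73214090-73214309 on the plus strand for Xlr4b and chrX:73243131-73243350 on the minus strand for Xlr4c.
Xlr4a: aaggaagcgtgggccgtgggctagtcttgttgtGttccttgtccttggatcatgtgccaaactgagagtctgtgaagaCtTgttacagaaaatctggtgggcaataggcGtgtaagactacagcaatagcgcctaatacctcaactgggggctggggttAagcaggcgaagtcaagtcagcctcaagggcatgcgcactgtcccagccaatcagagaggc
Xlr4b: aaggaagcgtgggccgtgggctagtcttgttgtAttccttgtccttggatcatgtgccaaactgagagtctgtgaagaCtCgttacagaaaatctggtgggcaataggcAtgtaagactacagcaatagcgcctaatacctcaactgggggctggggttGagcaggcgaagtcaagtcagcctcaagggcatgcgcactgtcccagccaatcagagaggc
Xlr4c: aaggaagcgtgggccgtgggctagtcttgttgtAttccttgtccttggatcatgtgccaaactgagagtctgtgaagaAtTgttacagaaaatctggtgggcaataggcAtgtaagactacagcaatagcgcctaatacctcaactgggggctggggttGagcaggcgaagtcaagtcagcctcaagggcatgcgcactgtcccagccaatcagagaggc
Over these 220 bases Xlr4b and Xlr4c differed at 2 positions, and Xlr4a differed from each of them at 4. Next, 4 short motifs were searched on both strands in the full 300-base RefSeq entries, chosen after the sequences were read. The forkhead letters GTAAACA and the RUNX letters TGTGGTT had 0 matches in the 6 genes, against matches in 3.65% and 5.27% of the 32851 promoter entries. GCATGCGC, a core of the NRF1 motif, had 1 match in each Xlr4 gene and 0 in the Xlr3 genes, and 2.71% of all entries hold it. CCAAT had 4 matches in Xlr3a, 2 in Xlr3b, 3 in Xlr3c and 1 in each Xlr4 gene, and 37.4% of entries hold at least 1. None of the 4 strings contains another on either strand, and a match is a string of letters only. The NRF1 matches of the Xlr4 genes lie at the same place in near-identical copies, so they are not separate finds.

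How much of each transcript can be assigned to its own gene was measured on the longest coding transcript of each member. Except in Xlr3c, that transcript is shorter than the deposited gene length, in Xlr3b 1564 against 3780 bases. The remaining bases were not examined. At a stretch length of 50 bases, 6.67% of the stretches of Xlr3b were in no other annotated gene, the lowest share of the 6, against 26.9% to 47.8% in the other 5. At 100 bases the unique share was 27.4% in Xlr3b and 47.2% to 62.2% in the others, and at 150 bases it was 52.0% in Xlr3b, 52.3% in Xlr4b and 68.2% to 73.3% in the remaining 4. Sharing was mainly within a subfamily: at 100 bases, 43.3% of Xlr3b stretches were also in Xlr3c and 40.3% in Xlr3a, but 4.23% in Xlr4a and 0.751% in Xlr4c. Read length and the treatment of reads with several matches are not given in the sources used here. If such reads were dropped, the counts understate each gene, and if they were divided, the split within a trio is uncertain. A sum over a trio avoids the split within that trio, and the sums are given beside the single genes for that reason.

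**Figure D1:**
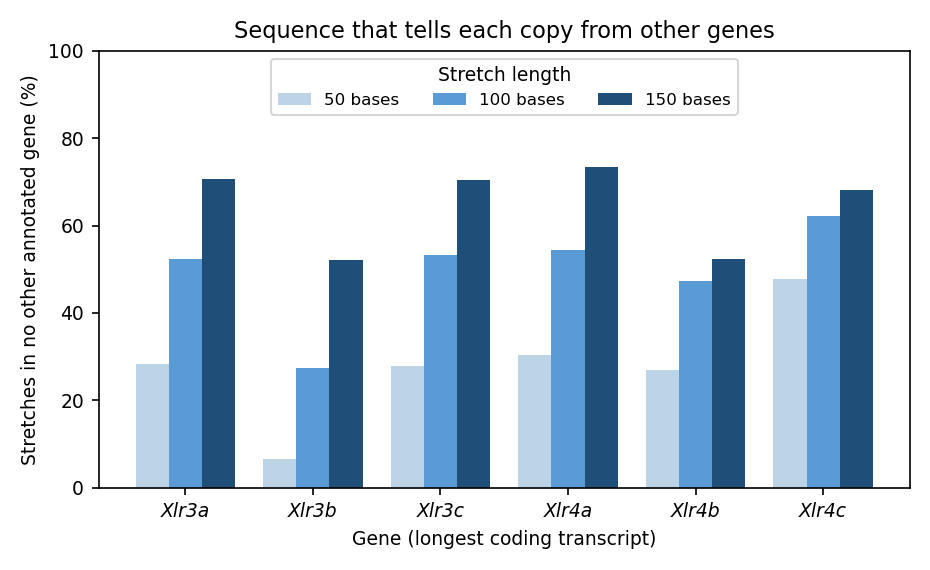
Share of stretches of the longest coding transcript of each gene (percent, from 0 to 100) that occur in no transcript of another gene in GENCODE M21, for stretches of 50, 100 and 150 bases. Xlr3b has the lowest share at each length, from 6.67% at 50 bases to 52.0% at 150, level there with Xlr4b at 52.3%.

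The Xlr3 genes come first. Xlr3b (ENSMUSG00000073125, chromosome X, 73192207 to 73202930, plus strand, GRCm38) had 942 WT reads but 3 Exon2KO reads. In CPM (counts scaled to library size) this was 60.0 (95% Poisson interval 56.2 to 64.0) and 0.188 (0.0387 to 0.549). The intervals are far apart, and the Exon2KO value equals the 3-read floor used here for a gene at 0. The log2 ratio of Exon2KO over WT was -7.58 with a prior count of 2 reads, and its 95% counting interval, taken without the prior count, was -10.60 to -6.77. With the prior count of 2, Xlr3b had the lowest ratio of the 12853 protein-coding genes tested and of the 495 X-linked loci tested. It took rank 2 among all 17363 loci. Genes with 0 Exon2KO reads, such as Ednrb, have no lower limit, so these ranks depend on the prior count. In WT the deposited FPKM of Xlr3b, 15.8, was above that of 79.0% of tested protein-coding genes. The WT value thus does not stem from a gene near the limit of detection.

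Xlr3a (ENSMUSG00000057836, 73086293 to 73097095, minus strand) was measured at a much lower level. It had 51 reads in WT and 6 in Exon2KO, or 3.25 CPM (2.42 to 4.27) and 0.375 CPM (0.138 to 0.817). The 2 intervals did not overlap, and the log2 ratio was -2.75 (-4.63 to -1.89). With so few reads the size of this ratio is loosely set, and reads of Xlr3b placed on Xlr3a could contribute to the 51. Xlr3c (ENSMUSG00000058147, 73254540 to 73265390, minus strand) had 4 reads in WT and 0 in Exon2KO. Its level was 0.255 CPM (0.0694 to 0.652) in WT. For Exon2KO, 0 reads allow up to 0.188 CPM by the 3-read floor, which is not a Poisson interval. The upper 95% limit of the log2 ratio of Xlr3c was 0.57, so a higher level in Exon2KO is within counting error too. A difference in Xlr3c was thus not detectable at this depth.

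Summed over the trio, Xlr3 stood at 63.5 CPM in WT but 0.563 CPM in Exon2KO, and the log2 ratio was -6.53 (-7.95 to -5.89). The shares of Xlr3a and Xlr3b in the trio differed between the libraries beyond counting error, although the Exon2KO shares rest on 9 reads. Counting error leaves out reads placed on the wrong copy, which could not be checked. In WT, 94.5% of Xlr3 reads belonged to Xlr3b (92.9 to 95.7, Wilson interval at 95%), against 33.3% (12.1 to 64.6) for Exon2KO. Xlr3a held 5.12% (3.91 to 6.66) and 66.7% (35.4 to 87.9). The reads of Xlr3c were 0.401% (0.156 to 1.03) of the trio in WT, and 0 of 9 in Exon2KO allow up to 29.9% by the same interval. The difference in the sum rests mostly on Xlr3b, with 942 of the 997 WT reads.

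**Figure D2:**
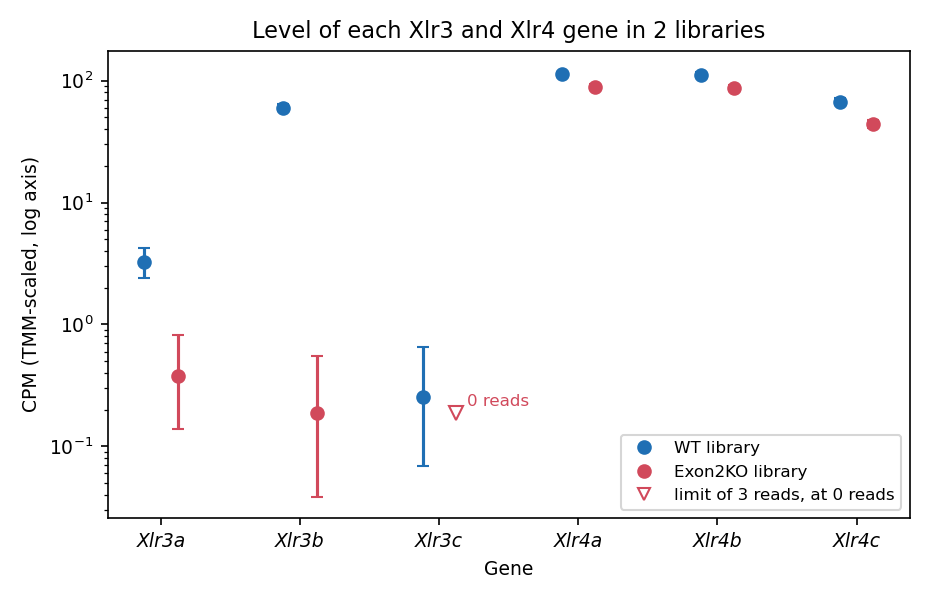
Level of each gene in the WT (blue) and Exon2KO (red) library in CPM on a log axis, with exact 95% Poisson intervals that cover counting error only. Xlr3b is at 60.0 and 0.188 CPM, the 3 Xlr4 genes lie between 44.3 and 112 CPM in both libraries, and the open triangle marks the limit of 3 reads, 0.188 CPM, for the 0 reads of Xlr3c.

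The Xlr4 genes showed a different picture, with many reads in each library and a modest difference in 1 direction. Xlr4a (ENSMUSG00000079845, 73074345 to 73082478, minus strand) had 1766 reads in WT and 1425 in Exon2KO, or 112 CPM (107 to 118) and 89.2 CPM (84.6 to 93.9). The log2 ratio was -0.33 (-0.44 to -0.23), 20.7% lower in the Exon2KO library. Xlr4b (ENSMUSG00000067768, 73214333 to 73222453, plus strand) was nearly the same, with 1757 and 1395 reads, or 112 CPM (107 to 117) and 87.3 CPM (82.8 to 92.0), and a log2 ratio of -0.36 (-0.46 to -0.26). The intervals of Xlr4a and Xlr4b overlapped within each library, so these 2 genes could not be ranked by reads.

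Xlr4c (ENSMUSG00000031362, 73233688 to 73243130, minus strand) had fewer reads than the other two, 1059 in WT and 708 in Exon2KO. Its level was 67.5 CPM (63.5 to 71.6) against 44.3 CPM (41.1 to 47.7), and its log2 ratio of -0.61 (-0.75 to -0.47) lay below those of Xlr4a and Xlr4b, with an interval that met neither of theirs. Within the Xlr4 reads, Xlr4c took 23.1% (21.9 to 24.4) in WT and 20.1% (18.8 to 21.4) in Exon2KO. Xlr4a took 38.5% (37.1 to 40.0) and 40.4% (38.8 to 42.0), and Xlr4b 38.3% (36.9 to 39.8) and 39.5% (37.9 to 41.2). The split among the copies thus differed by a few percentage points at most between the libraries. The Xlr4 sum was 292 CPM (WT) against 221 CPM (Exon2KO), or -0.40 as a log2 ratio (-0.47 to -0.34). A counting interval wholly below 0, which these 3 genes had, was found for 24.5% of all loci tested, and it says nothing about the spread between mice.

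**Figure D3:**
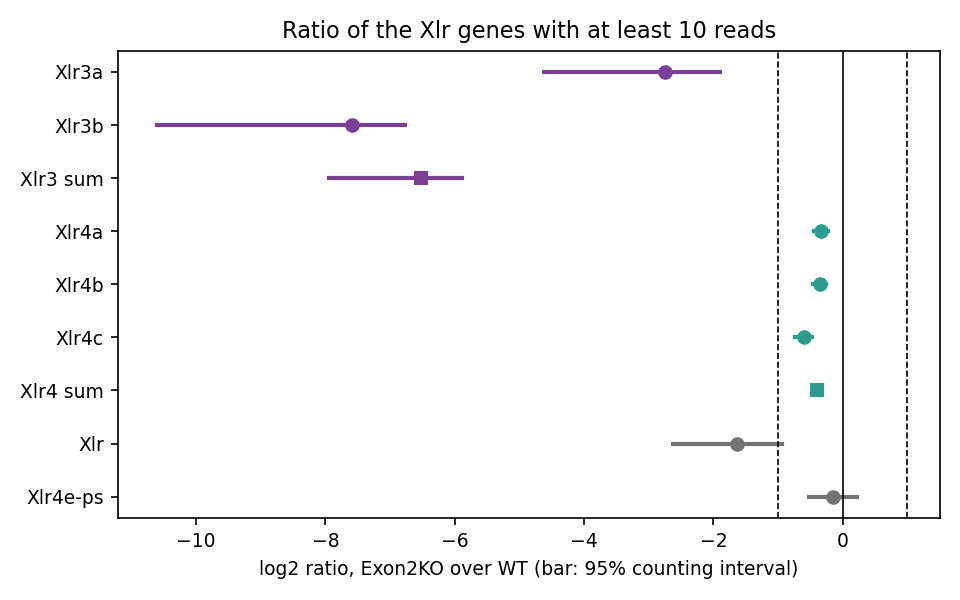
Log2 ratio of Exon2KO over WT (prior count of 2) for the Xlr genes with at least 10 reads and for the sums of each trio (squares), with bars for the 95% counting interval and dashed lines at 2-fold. The Xlr3 sum at -6.53 and the Xlr4 sum at -0.40 have intervals that do not meet.

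The split by subfamily does not depend on how the 2 libraries are scaled, because it can be read within each library. Xlr3 took 17.9% (16.9 to 18.9) of the reads of all 6 genes in WT, 997 of 5579, and 0.254% (0.134 to 0.483) in Exon2KO, 9 of 3537. Per length, with the FPKM values deposited by the authors, the order of levels in WT was Xlr4a at 72.9, Xlr4b at 43.5, Xlr4c at 30.1, Xlr3b at 15.8, Xlr3a at 0.799 and Xlr3c at 0.160. In Exon2KO it was Xlr4a at 58.3, Xlr4b at 34.2, Xlr4c at 19.9, Xlr3a at 0.0932, Xlr3b at 0.0499 and Xlr3c listed at 0. Xlr3a and Xlr3b changed places, but the Exon2KO values of the Xlr3 genes rest on 6, 3 and 0 reads and cannot be ranked. The lengths used for these FPKM values are 4045 bases for Xlr3a and 3780 for Xlr3b, where the longest coding transcripts have 1645 and 1564, and 1584 for Xlr3c, equal to its single transcript. For Xlr4a, Xlr4b and Xlr4c the deposited lengths are 1535, 2560 and 2232 bases and the longest coding transcripts 1162, 1304 and 1500. Dividing by the longer length lowers FPKM most for Xlr3a and Xlr3b.

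The authors' deposited table gives log2 fold changes of -8.26 for Xlr3b, -3.09 for Xlr3a and -5.06 for Xlr3c, and -0.34, -0.36 and -0.61 for Xlr4a, Xlr4b and Xlr4c. In the authors' deposited table the adjusted p-value was 4.21e-29 for Xlr3b, 0.000573 for Xlr3a, 0.628 for Xlr3c, 0.639 for Xlr4c and 0.955 for Xlr4a and Xlr4b. Those p-values do not come from replicates. Recomputing them with edgeR's exact test under an assumed coefficient of variation of 0.2 between samples gave values within 1% for 100% of 22447 loci, and within 1% for at most 11.7% of them with 0.1, 0.3 or 0.4.

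**Figure D4:**
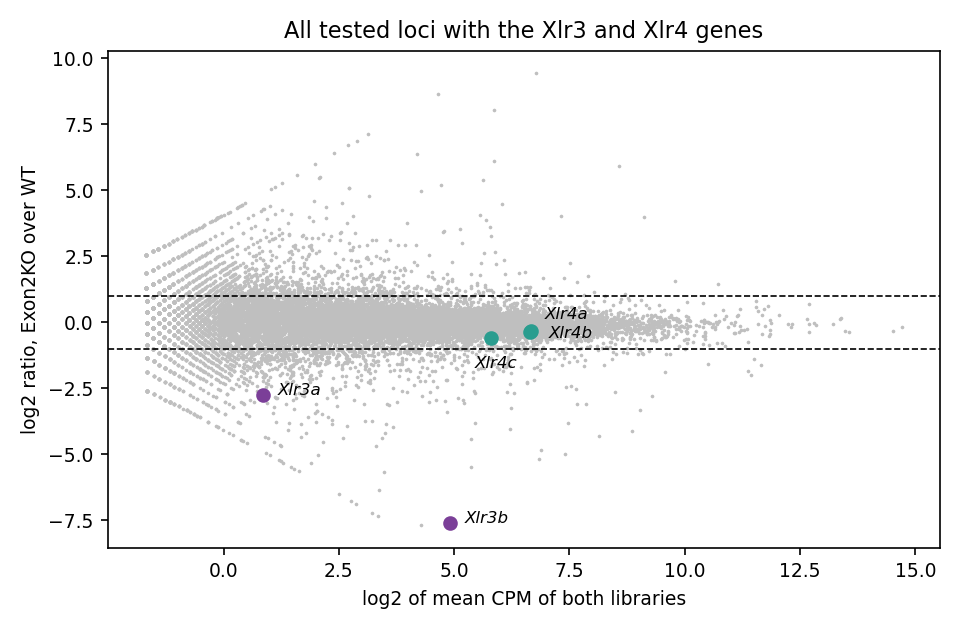
Log2 ratio of Exon2KO over WT against the log2 of the mean CPM for the 17363 loci tested (grey), with the 5 members that had at least 10 reads in colour and dashed lines at 2-fold. Xlr3b, at -7.58, sits at the lower edge of the plot, while the 3 Xlr4 genes lie inside the dashed lines.

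The neighbouring genes were examined for the same pattern. A span from 500 kb before to 500 kb after the cluster held 42 other loci in the table, of which 28 had 0 reads in both libraries, 4 had fewer than 10 and 10 were tested. Of the 10, 0 were lower past 2-fold and 1 was higher, Slc6a8, a creatine transporter with 16 and 37 reads (log2 ratio 1.09, 0.30 to 2.13). Their median log2 ratio was -0.10, against 0.00 over all loci tested and -0.03 over X-linked loci, of which 10.3% were lower past 2-fold and 8.08% higher. F8a, which lies between Xlr4b and Xlr4c, had 238 and 210 reads and a log2 ratio of -0.20 (-0.48 to 0.07). On the outer sides, Nsdhl, a sterol synthesis enzyme, was at -0.21 (-0.44 to 0.01), Haus7, a part of the augmin complex of the spindle, at -0.20 (-0.39 to -0.02), and Zfp275 at -0.03 (-0.43 to 0.38). Xlr3b and Xlr4b, which neighbour each other on the same strand, were at -7.58 and -0.36. With the X-linked share of 10.3% lower, 0 of 10 neighbours is near the background, and nothing particular to this span is read from it. The annotated span of Xlr5a runs across Xlr3b, Xlr4b, Xlr4c and Xlr3c, but its exons overlap none of theirs, and Xlr5a had 0 reads.

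**Figure D5:**
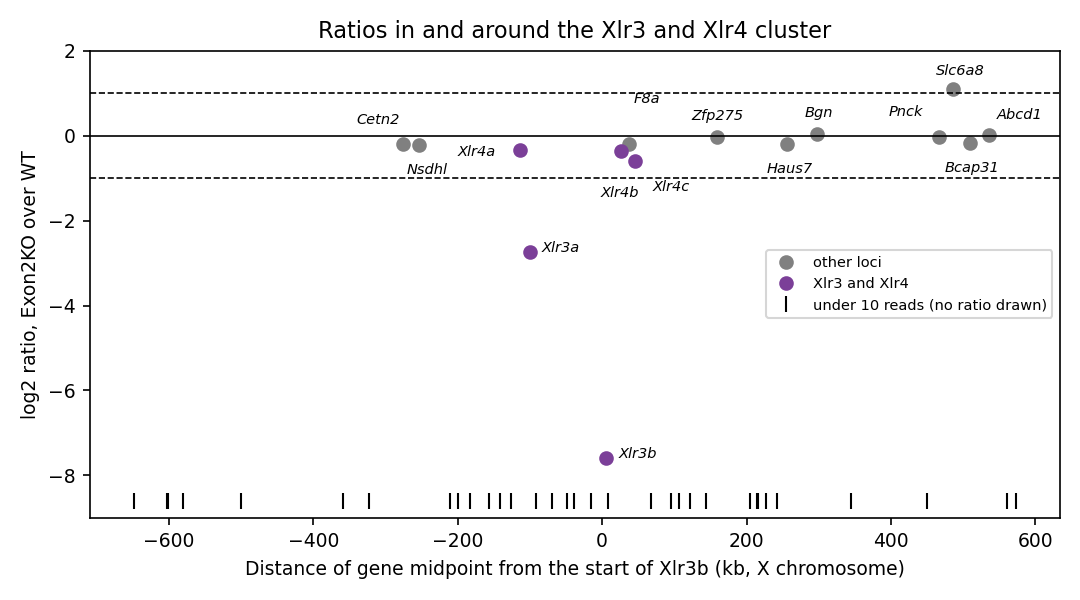
Log2 ratio of Exon2KO over WT for each tested locus within 500 kb of the cluster, by the distance of its midpoint from the start of Xlr3b in kb, with members in purple, other loci in grey and dashed lines at 2-fold. Tick marks at the bottom are loci with fewer than 10 reads, and among the drawn loci Xlr3b (-7.58) and Xlr3a (-2.75) alone lie below the lower dashed line.

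Other relatives of the family gave few reads. Of the 14 named Xlr, Slx, Sly and Sycp3 genes outside the 6 members, 10 had 0 reads in both libraries, among them Xlr5a, Xlr5b, Xlr5c and the Xlr3 pseudogenes Xlr3d-ps and Xlr3e-ps. A count of 0 allows up to 0.191 CPM in WT and 0.188 CPM in Exon2KO (3 reads). Xlr, the founding gene, which lies elsewhere on the X chromosome, had 56 and 17 reads and a log2 ratio of -1.63 (-2.62 to -0.94). The pseudogene Xlr4e-ps had 134 and 123 reads (-0.15, -0.51 to 0.21), and Xlr4d-ps had 5 and 4. At 50 bases, Xlr4e-ps shares 24.0% of the stretches of Xlr4a, 26.9% of Xlr4b and 23.9% of Xlr4c, so reads of these pseudogenes and of the Xlr4 genes may be exchanged, and the Xlr4 sum does not cover this. Sycp3 itself had 0 reads in WT and 1 in Exon2KO.

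Atrx was listed for its known tie to Xlr3b, together with other chromatin regulators and with genes of X inactivation. Atrx reads numbered 2702 (WT) and 2748 (Exon2KO), and the log2 ratio was 0.00 (-0.08 to 0.08). Of the 20 chromatin regulators, 20 were tested and 0 passed 2-fold in either direction, with a median of -0.02, where 8.14% of all loci tested were lower and 9.38% higher. Most loci thus lay within 2-fold, and nothing particular to these genes is read from the 0 of 20. The lowest was the maintenance DNA methyltransferase Dnmt1 at -0.53 (-0.78 to -0.30), and the highest was the dioxygenase Tet2 at 0.43 (0.28 to 0.57). All 8 genes of X inactivation or known escape from it lay within 2-fold as well, as did most loci by the same shares, with Xist, the RNA that coats the inactive X, at 1348 and 2101 reads (0.61, 0.52 to 0.71).

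By closeness of the log2 ratio over the 2 libraries, the 5 protein-coding genes outside the family with at least 100 reads in 1 library that were most like Xlr3b were Ednrb, Acod1, Fam160a1, Gzma and Dgat2. Their reads were 231 and 0 for the endothelin receptor gene Ednrb (upper 95% limit of the log2 ratio -5.98), 3478 and 96 for Acod1, which makes itaconate, and 127 and 2 for Fam160a1. Gzma, which encodes granzyme A, had 5153 and 164, and Dgat2, an enzyme of triglyceride synthesis, had 3565 and 124. With the prior count of 2, the log2 ratio of Ednrb lay 0.70 from that of Xlr3b, and those of Acod1 and Dgat2 lay 2.41 and 2.73 away. The distance and place of Ednrb depend on the prior count, since its ratio has no lower limit at 0 reads. A likeness over 2 libraries is a single ratio and cannot group genes.

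Foxp3, the targeted gene, was read 6991 times in WT against 20946 times in Exon2KO (log2 ratio 1.56), but reads summed over all its exons cannot check the loss of a single exon. Total depth was 16281133 reads in WT and 15412425 in Exon2KO. Both libraries held Cd3e (5154 and 5262 reads) and Cd4 (4593 and 5367), while the thymocyte genes Rag1, Rag2, Dntt and Ptcra had 0 reads in both. Of the 8 Treg and T cell genes listed and tested, 1 was lower past 2-fold (Ikzf2) and 1 higher (Foxp3). Among all loci tested, 8.14% were lower and 9.38% higher. In this list 4 of the 8 log2 ratios were below 0, with Il2ra at -0.35 and Cd3d at -0.25, while Ctla4 was at 0.71. Markers of other cell types were compared with the same shares. The summed level was 8230 and 7440 CPM for 9 B and plasma cell genes (3 of 8 tested lower past 2-fold, 1 higher), 98.3 and 64.1 CPM for 8 CD8 and NK cell genes (2 of 7 lower, 1 higher), 89.9 and 339.6 CPM for 8 epithelial genes (6 of 8 higher) and 32.0 and 42.0 CPM for 8 myeloid genes (1 of 3 lower). The B and plasma cell sum is mostly Jchain, at 7649 and 7115 CPM, and without it, a choice made after the values were seen, the other 8 genes summed to 581 and 325 CPM. Most of that gap is Ighm, at 290.5 and 53.6 CPM, while Sdc1 went the other way, at 32.5 and 75.9 CPM. The B cell gene Ms4a1 had 47 and 10 reads, so this marker was not at 0 in either library, and Itgax was at 0 in both. Ikzf2, which encodes Helios, had 8476 and 440 reads in these bulk libraries. In CPM, Foxp3 stood at 445 in WT and 1311 in Exon2KO, below Jchain in both. The part of any of these cells or subsets in the Xlr3 difference was not tested. In bulk RNA, fewer cells of a type and less RNA per cell cannot be told apart.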

How the data were processed

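RNA of colonic Treg cells (Qiagen column kit, 1 µg into an NEBNext Ultra library, per the labels' protocols) was sequenced in 1 WT and 1 Exon2KO library. The submitters' processing notes name HISAT2 2.0.5, StringTie 1.3.3b, featureCounts 1.5.0-p3, DESeq2 1.16.1 and mm10, without their roles; strand, read length and the handling of multiply mapped reads are not given in the sources used here. The authors deposited whole-number read counts per gene, used for all ratios, and FPKM values, used for levels per length. A scaled count signal deposited by the authors was not used. The log2 fold changes and p-values deposited by the authors are quoted as theirs. Gene length is as deposited, and coordinates of all 6 genes equal those of GENCODE M21 (GRCm38).

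Counts were scaled by TMM in edgeR 4.0.16 (R 4.3.3; factors 0.964 for WT and 1.04 for Exon2KO). Loci with at least 10 reads over both libraries were tested against a 2-fold threshold on the log2 ratio with a prior count of 2. This is a size rule, not a statistical test, since 1 library per group leaves no spread to estimate. Intervals are 95% Clopper-Pearson for ratios, exact Poisson for CPM and Wilson for shares. All cover counting error only, and reads lacking molecular identifiers can share 1 original molecule. The ratio and interval code was tested on simulated data. Python 3.11.15, scipy 1.17.1 and MAFFT alignments were used. The members, the lists and the rule for other named genes (list members, tested neighbours and the 5 genes nearest to Xlr3b) were chosen with earlier results of these data known.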

Additional observations from a re-analysis of the deposited data

How the results depend on the processing

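All 6 members kept a ratio below 0 under the scalings by DESeq2 size factors, total counts and upper quartile, and with prior counts of 0.5 and 5. Total counts moved all ratios by up to 0.105, which gave -0.23 for Xlr4a and -0.25 for Xlr4b. The number of members lower past 2-fold was 2 under these settings, 3 with a fold threshold of 1.5 (Xlr4c added) and 3 without the read filter (Xlr3c added), and the number higher was 0 throughout. It stayed at 2 with a minimum of 50 reads, a threshold of 4 and the whole interval beyond 2-fold. Summing reads over the trio gave -6.53 in place of the values of Xlr3a and Xlr3b and -0.40 in place of that of Xlr4c. Summing over all 6 gave -0.68, which hides the split. Ratios of the deposited FPKM were -3.10 for Xlr3a and -8.31 for Xlr3b.

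Over all loci, 1413 were lower and 1629 higher past 2-fold, so that 53.6% of calls were higher. Scaling by total counts gave 1237 and 1871 (60.2% higher), DESeq2 size factors 1397 and 1648, and upper quartile 1306 and 1773. The counts were 685 and 650 with a minimum of 50 reads (12730 loci tested), 2844 and 2644 without the filter (24333 tested), 2642 and 2925 with a threshold of 1.5, and 408 and 499 with 4. They were 576 and 598 with the whole interval beyond 2-fold, and 934 and 962 for the 12853 protein-coding genes. No paired analysis was possible because there was 1 library of each genotype, and for the same reason no replicate could be left out.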

Other observations

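Since Xlr3b, Xlr4b and Xlr4c are imprinted in brain, 35 other imprinted genes were listed. Of these, 9 had 0 reads in both libraries, 19 were tested, 3 were lower past 2-fold and 2 higher, with a median log2 ratio of -0.14. The lower ones were Rasgrf1, with 58 reads in WT and 1 in Exon2KO (95% interval of the log2 ratio -11.21 to -3.35), Snrpn, with 34 and 7 reads (-2.02, -3.72 to -1.11), and Plagl1, with 343 and 169 reads (-1.04, -1.32 to -0.78). Airn, an antisense RNA of the Igf2r locus, was higher with 59 and 200 reads (1.70, 1.31 to 2.18), as was Slc22a18 with 18 and 49 (1.33, 0.61 to 2.29). Igf2r, which Airn overlaps, was at 0.29 (0.10 to 0.47), and reads of this pair cannot be told apart if strand was not used in counting. Among all loci tested, 8.14% were lower and 9.38% higher.

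Meiosis and germline genes were listed because SYCP3 acts in meiosis. Of 32 listed genes, 14 had 0 reads in both libraries, 12 had fewer than 10 and 6 were tested. Of the 6, 2 were lower past 2-fold and 0 higher, against 8.14% lower and 9.38% higher among all loci tested. Syce2 had the most reads, 116 in WT and 70 in Exon2KO, Hormad2 had 46 and 61, and Rec8 had 43 and 41, and these 3 lay within 2-fold. Piwil2, a gene of the piRNA pathway, had 67 and 27 reads (-1.28, -2.04 to -0.67), and Spo11, which cuts meiotic DNA, had 11 and 3 (95% interval -4.38 to 0.02).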
